A study of Mus musculus with 18 samples.

Results

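Integrins and laminins are the receptors and ligands through which a cell holds the basement membrane. An integrin is a pair of 1 alpha and 1 beta subunit, and a laminin is a trimer of 1 alpha, 1 beta and 1 gamma chain. Itga3, Itga6 and Itga7 with Itgb1, and Itga6 with Itgb4, bind laminins. Itga5 with Itgb1, and Itgav with Itgb1, Itgb3 or Itgb5, bind ligands that carry an RGD motif, such as fibronectin and vitronectin. Early embryos and pluripotent stem cells lay down laminins, and mouse embryonic stem cells (ESCs) and induced pluripotent stem cells (iPSCs) are cultured on a feeder layer or a coated dish that presents such ligands. The genes described here are integrin and laminin subunit genes of the mouse, chosen by name: symbols of the form Itga, Itgb, Lama, Lamb or Lamc with a number or a subunit letter. They number 36 of 55469 genes, with 18 integrin alpha, 8 integrin beta and 10 laminin genes.

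RNA-seq of 18 libraries in 9 groups of 2 was used to ask how cells held pluripotent by OSKM, the reprogramming factors Oct4, Sox2, Klf4 and c-Myc, differ from cells held by 2 inhibitors and LIF. The ESC line carried a doxycycline (DOX) inducible OSKM transgene in the Col1a1 locus, the M2rtTA transactivator in Rosa26 and an Oct4-GFP reporter, on a mixed (C57BL/6 x 129S4/SvJae)F1 by (CBA/CaJ X C57BL/6J)F2 background. 2iL-ESCs stayed in N2B27 medium with PD0325901, CHIR99021 and LIF (2iL), which block MEK and GSK3 and supply the cytokine, and OSKM-ESCs were moved from 2iL to N2B27 with DOX; both were collected at days 18, 25 and 38 with 2 libraries each. Embryonic fibroblasts (MEF) of the (C57BL/6 x 129S4/SvJae)F1 strain with the same inducible OSKM transgene gave OSKM-iPSC clones 1 and 3, reprogrammed and kept in N2B27 with DOX, and 2iL-iPSC clones 3 and 6, reprogrammed in 2iL with DOX. For the daily culture of the 2iL-iPSC clones the sample labels give N2B27 with DOX, whereas the series design and the study's methods give 2iL, so these clones are named by their titles here. OSKM-iPSC clones 1 and 3 were taken at passage 7 and passage 6, later than 2iL-iPSC clone 3 at passage 2 and clone 6 at passage 3, so passage and medium cannot be told apart in iPSCs. Pluripotent cells of this study were grown on mitomycin-treated MEF feeders, and the MEF libraries (passage 4, DMEM with serum) gave the fibroblast level. All ESC libraries came from 1 line, and the labels do not say whether same-day libraries were separate cultures, so p-values measure the spread between these libraries, which may be technical.

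Levels were FPKM, the fragments of a gene scaled by transcript length and by the mapped fragments of the library. The scaling by length allows levels of different genes to be set side by side. Between libraries FPKM do not correct a shift common to many genes. Between 11303 and 12095 genes passed an FPKM of 1 in a library. Read totals are unknown here, and the mean read coverage that went with an FPKM of 1 was 5.005 to 6.069 across libraries, a narrow range. Pluripotency markers summed over 7 genes reached 1009 to 1260 FPKM in OSKM-ESCs, 1866 to 1948 in 2iL-ESCs, 754 and 964 in OSKM-iPSCs, 1730 and 1975 in 2iL-iPSCs and 1.15 and 1.65 in MEF, where 5 of the 7 were listed at 0. Fibroblast markers summed over 9 genes reached 975 and 1116 FPKM in MEF. They were at 15.3 to 27.7 in OSKM-ESCs, 3.24 to 5.45 in 2iL-ESCs, and 3.00 and 1.76 in 2iL-iPSC clones 3 and 6. OSKM-iPSC clone 1 stood apart with 72.9, against 4.78 in clone 3, and tests on OSKM-iPSCs are therefore also given without clone 1 for the genes described. These are bulk samples, so fewer cells of a type and less RNA per cell cannot be told apart.

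Of the 36 genes, 26 passed an FPKM of 1 in at least 1 of the 18 libraries and 10 never did. Itgad was listed at 0 throughout. In the 16 pluripotent libraries 19 genes passed 1 at least once and 11 passed it in every library: Itga3, Itga5, Itga6, Itgav, Itgb1, Itgb5, Itgb7, Lama5, Lamb1, Lamb2 and Lamc1. Both MEF libraries had 22 genes over 1, and 7 of these passed 1 in no pluripotent library, namely Itga1, Itga2b, Itga8, Itga11, Itgb2, Itgb3 and Lama2. Among the integrin alpha genes, the laminin receptor Itga6 had the highest mean share of summed FPKM in each kind of pluripotent cell. The laminin receptor Itga3 came next with OSKM, and the fibronectin receptor Itga5 came next in 2iL. Itga3 made up 33.2% in OSKM-ESCs but only 7.03% in 2iL-ESCs, below Itgav at 8.88%. Among the beta genes, the shared subunit Itgb1 led and Itgb5 came next in each kind of pluripotent cell. The laminin genes over 1 in every pluripotent library were the chains of the Lama5 laminins. Counted by groups, 6 of 24 known alpha-beta pairs had both subunits at a mean FPKM over 1 in 2iL-ESCs, 7 in OSKM-ESCs, 7 in each kind of iPSC and 13 in MEF.

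**Figure D1:**
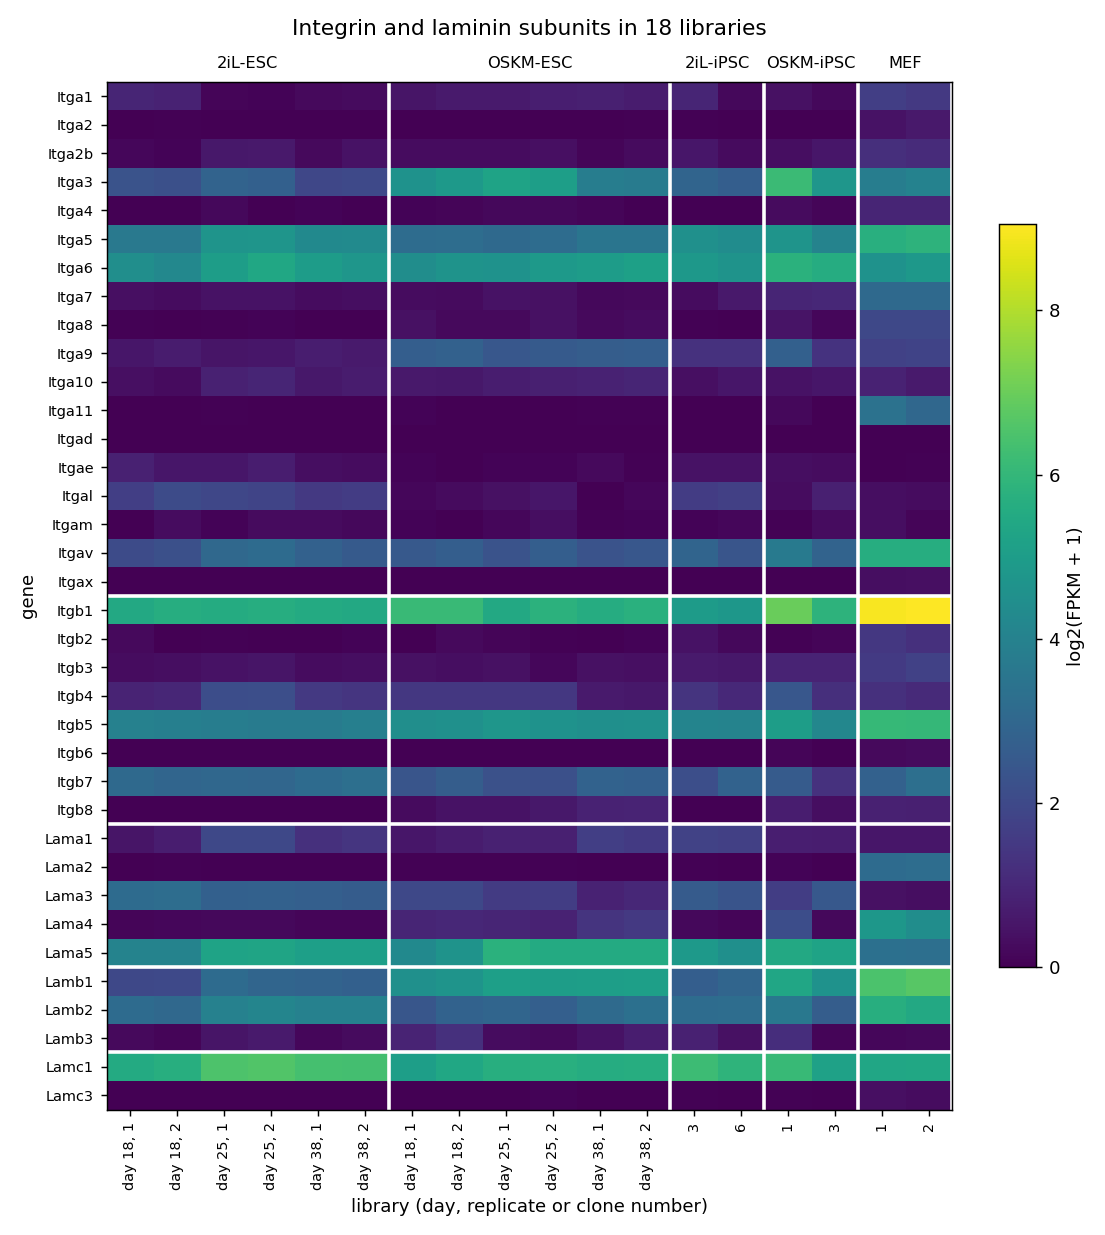
Level of each of the 36 integrin and laminin subunit genes (vertical axis) in each of the 18 libraries (horizontal axis, by group, with day and replicate or clone number), as log2(FPKM + 1) in colour. Itgb1 in MEF, at 499 and 529 FPKM, is the brightest, and Itga3, Itga9 and Lamb1 are brighter in OSKM-ESCs than in 2iL-ESCs.

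The sequences at the start sites of 4 members are shown because these genes carry the contrast that follows: Itga3 and Lamb1 were higher with OSKM, and Itga5 and Lamb2 were lower with OSKM in ESCs. Each runs from 250 bases before to 50 bases after a RefSeq start site on GRCm38.p6. The windows are chr11:95076665-95076964, minus strand, for Itga3 (gene on chromosome 11, 95044474 to 95076801), chr15:103366742-103367041, minus strand, for Itga5 (gene on chromosome 15, 103344286 to 103366763), chr12:31265043-31265342, plus strand, for Lamb1 (gene on chromosome 12, 31265234 to 31329644) and chr9:108479612-108479911, plus strand, for Lamb2 (gene on chromosome 9, 108479736 to 108490530). Capitals mark any match, on either strand, to the motifs searched, which were the octamer ATGCAAAT, the GC box GGGCGG, the KLF box GGGTGTG, the E-box CACGTG, the AP-1 site TGANTCA and the TATA box TATAAA.
Itga3: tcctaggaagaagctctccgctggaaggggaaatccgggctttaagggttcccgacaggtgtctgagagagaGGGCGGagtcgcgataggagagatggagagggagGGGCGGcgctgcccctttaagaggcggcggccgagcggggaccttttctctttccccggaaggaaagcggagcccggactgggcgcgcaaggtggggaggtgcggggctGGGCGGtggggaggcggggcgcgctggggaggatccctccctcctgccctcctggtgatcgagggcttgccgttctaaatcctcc
Lamb1: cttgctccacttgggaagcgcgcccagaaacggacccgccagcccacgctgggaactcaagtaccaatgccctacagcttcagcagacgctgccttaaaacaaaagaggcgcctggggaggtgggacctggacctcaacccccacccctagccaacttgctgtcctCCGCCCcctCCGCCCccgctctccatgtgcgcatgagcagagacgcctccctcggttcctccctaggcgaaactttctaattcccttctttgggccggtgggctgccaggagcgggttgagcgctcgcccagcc
Itga5: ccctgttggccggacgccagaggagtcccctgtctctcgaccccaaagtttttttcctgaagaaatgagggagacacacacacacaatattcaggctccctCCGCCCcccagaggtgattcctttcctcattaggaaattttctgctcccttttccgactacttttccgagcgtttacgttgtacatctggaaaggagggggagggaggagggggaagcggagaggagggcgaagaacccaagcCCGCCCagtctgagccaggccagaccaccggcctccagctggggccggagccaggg
Lamb2: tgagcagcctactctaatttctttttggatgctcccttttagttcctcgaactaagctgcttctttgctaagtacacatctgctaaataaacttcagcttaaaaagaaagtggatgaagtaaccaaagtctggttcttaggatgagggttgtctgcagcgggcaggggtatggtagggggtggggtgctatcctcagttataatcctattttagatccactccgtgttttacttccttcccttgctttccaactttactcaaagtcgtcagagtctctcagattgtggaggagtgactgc

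The Itga3 window held 3 GC boxes, the Lamb1 window 2 and the Itga5 window 2, and the Lamb2 window held none of the 6 motifs. GC content was 66.7% for Itga3, 63.7% for Lamb1, 58.7% for Itga5 and 44% for Lamb2. The median was 52.7% over all promoters and 59% over the members with an entry. A GC box stood in 35.7% of 32851 mouse promoter windows of this length, the octamer in 1.74%, the KLF box in 7.95%, the E-box in 7.15%, the AP-1 site in 7.81% and the TATA box in 13.6%. Among the 23 members with a promoter entry, 11 windows had a GC box, 3 a KLF box, 2 an AP-1 site and none the octamer. Some windows lie far from the annotated gene start, by 105002 bases for Itga9, 94295 for Lamb3 and 2816 for Lama2. The Itga9 window is among those with an AP-1 site and the Lama2 window among those with a GC box. The files do not show which start site was used, so these matches describe the sequence alone. Members with no entry include Itga6, Itgal, Lama1, Lama3, Lama4 and Lamc1.

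The first comparison asked what the change from 2iL to OSKM did in ESCs. Itga3, Itga9 and Lamb1 were several times higher in OSKM-ESCs, Itgal and Lama3 were lower by more than 2-fold, and Itga6, the most abundant laminin-binding alpha subunit in 2iL, did not pass the test. Of 18 members tested, 7 rose (Itga3, Itga9, Itgb1, Itgb5, Lama4, Lama5 and Lamb1), where 29.5% of all 14016 genes did. A further 6 fell (Itga5, Itgal, Itgb7, Lama3, Lamb2 and Lamc1), where 24.4% of all genes did. Both shares of members called were near that background. Itga9, Lama4 and Lamb3 passed the filter on low values only through OSKM-ESCs and Itgal only through 2iL-ESCs, so a difference in these was built into their being tested. The calls for Itga9, Lama4 and Itgal therefore have no weight as support. The median log2 change was -0.09 over the 18 members and 0.03 over all genes, with a median absolute size of 0.69 against 0.31. Calls are from limma on log2(FPKM + 1) with day as a covariate, at a Benjamini-Hochberg adjusted p under 0.05 over all genes, and 12 libraries entered.

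Itga3, the alpha subunit of a laminin receptor of epithelia, had 23.4 and 28.2 FPKM in OSKM-ESCs at day 18, 37.0 and 32.9 at day 25, and 13.3 and 12.7 at day 38. In 2iL-ESCs it had 3.93 and 3.61, then 6.43 and 5.79, then 2.82 and 2.95. Every OSKM-ESC library was above every 2iL-ESC library, and the lowest OSKM-ESC libraries were those of day 38. The log2 change was 2.23 ± 0.11 (SE, limma, adjusted p = 1.37e-08), and the means of 24.6 ± 10.1 and 4.25 ± 1.51 FPKM (SD, n = 6) stood 5.79-fold apart. The 4 OSKM-ESC libraries of days 18 and 25 were also above the MEF libraries, at 13.2 and 14.97 FPKM.

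Itga9, whose pair with Itgb1 binds tenascin and osteopontin, ranged from 4.45 through a median of 5.44 to 5.96 FPKM in OSKM-ESCs. In 2iL-ESCs it ranged from 0.44 through 0.53 to 0.64. The groups did not overlap, and no day stood out. The log2 change was 2.03 ± 0.08 (SE, limma, adjusted p = 3.03e-09). Itga9 was tested only through OSKM-ESCs, so a higher value with OSKM was built in and its call has no weight as support. The MEF libraries had 2.35 and 2.54 FPKM, below every OSKM-ESC library. Itga9 passed an FPKM of 1 in no 2iL-ESC library. In means over all days, the Itga9-Itgb1 pair is what OSKM-ESCs had over 2iL-ESCs in the count of pairs. By day, OSKM-ESCs had 7, 7 and 6 pairs at days 18, 25 and 38, and 2iL-ESCs had 5, 6 and 6. The Itga6-Itgb4 pair was missing in 2iL-ESCs at day 18 and in OSKM-ESCs at day 38.

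Itga6, the laminin receptor alpha subunit that pairs with either Itgb1 or Itgb4, ranged from 20.6 through 26.1 to 34.6 FPKM in OSKM-ESCs and from 17.6 through 28.4 to 40.5 in 2iL-ESCs. The groups overlapped throughout, with a log2 change of -0.03 ± 0.13 (SE, limma, adjusted p = 0.881). Relative to Itga6, Itga3 moved from 0.0908 to 0.205 times its level in 2iL-ESCs to 0.367 to 1.60 times in OSKM-ESCs. At days 18 and 25 Itga3 thus reached or passed the level of Itga6 in OSKM-ESCs, and at day 38 it did not. Itga7, the muscle laminin receptor subunit, stayed under an FPKM of 1 in all 12 ESC libraries and was not tested there.

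Itgb1, the beta subunit shared by most of these pairs, had 68.4 and 68.6 FPKM in OSKM-ESCs at day 18, 43.5 and 54.7 at day 25, and 48.2 and 52.4 at day 38, against 43.4 to 49.4 in 2iL-ESCs. OSKM-ESCs were above 2iL-ESCs at days 18 and 38 and overlapped with them at day 25. The log2 change was 0.26 ± 0.09 (SE, limma, adjusted p = 0.0303). This call was lost without any 1 of the 4 day 18 libraries, without replicate 2 of OSKM-ESC day 25, and without replicate 2 of day 38 in either medium, where the highest adjusted p was 0.0704. It was also lost without the filter on low values (adjusted p = 0.0584), with the replicate block (0.056) and in a fit of all 9 groups (0.16). Itgb5, which pairs with Itgav to bind vitronectin, went from 12.4 to 14.8 FPKM in 2iL-ESCs to 21.3 to 26.1 in OSKM-ESCs, with no overlap. Its log2 change was 0.71 ± 0.07 (SE, limma, adjusted p = 5.37e-06). Itgb4, the hemidesmosome subunit, had 0.50 to 1.80 FPKM in OSKM-ESCs and 0.87 to 3.54 in 2iL-ESCs and did not pass (log2 change -0.33 ± 0.19, limma, adjusted p = 0.176). Itgb3 stayed under 1 in every ESC library.

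Itga5, the fibronectin receptor alpha subunit, had 8.12 and 8.41 FPKM in OSKM-ESCs at day 18, 7.63 and 8.17 at day 25, and 10.5 and 10.5 at day 38. In 2iL-ESCs it had 11.5 and 11.5, then 24.8 and 25.1, then 18.4 and 19.02. All 2iL-ESC libraries were above all OSKM-ESC libraries, by a log2 change of -0.92 ± 0.15 (SE, limma, adjusted p = 0.000225). Itgav, the alpha subunit of the vitronectin receptors, had 3.96 to 5.52 FPKM against 3.22 to 7.97 and did not pass (limma, adjusted p = 0.443).

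Of the integrins best known from white blood cells, Itgal, the alpha subunit of LFA-1, had 1.85 through a median of 2.42 to 3.17 FPKM in 2iL-ESCs and 0.02 through 0.16 to 0.45 in OSKM-ESCs. The groups did not overlap, and the log2 change was -1.51 ± 0.10 (SE, limma, adjusted p = 1.5e-07). Itgal was tested only through 2iL-ESCs, so a lower value with OSKM was built in and its call has no weight as support. Its partner Itgb2 had at most 0.363 FPKM in the pluripotent libraries. Of the blood cell markers listed, Ptprc, Tyrobp and Csf1r had at most 0.0277, 0.08 and 0.183 FPKM in ESC libraries. Spi1 had 0 to 0.20 FPKM in OSKM-ESCs and 0.25 to 1.11 in 2iL-ESCs. Cd68 had 4.36 to 8.85 and 5.78 to 11.5. The part of blood cells in these levels was not tested. Itgb7, the beta subunit of gut-homing lymphocyte integrins, had 3.66 to 6.20 FPKM in OSKM-ESCs and 6.67 to 8.95 in 2iL-ESCs (log2 change -0.56 ± 0.09, limma, adjusted p = 0.000186). Neither of its known alpha partners, Itga4 and Itgae, passed an FPKM of 1 in any library.

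Itgb8, a beta subunit that pairs with Itgav and was singled out after its values were seen, was listed at 0 in all 6 2iL-ESC and both 2iL-iPSC libraries. It had 0.19 to 0.86 FPKM in OSKM-ESCs, highest at day 38, and 0.64 and 0.26 in OSKM-iPSC clones 1 and 3. These levels are under the FPKM of 1 that the filter required, so Itgb8 was tested only without that filter, where its adjusted p (limma) was 0.000387 in ESCs and 0.208 in iPSCs.

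**Figure D2:**
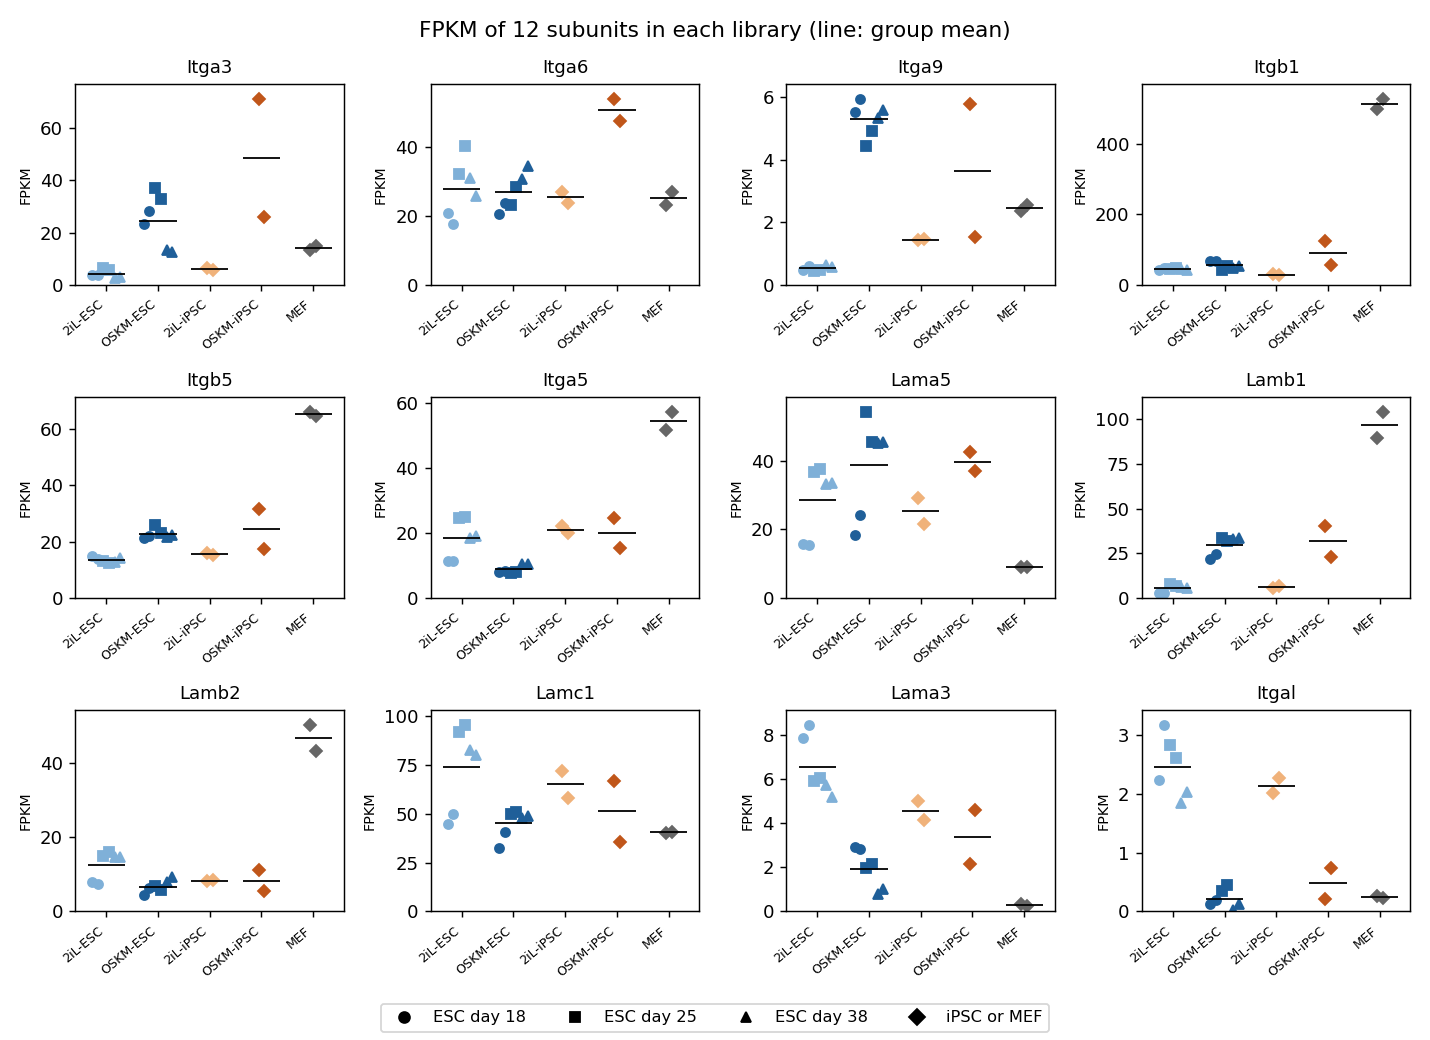
FPKM (vertical axis, linear, from 0) of 12 subunits in each library by group (horizontal axis), with symbols for the ESC day and a line at the group mean. OSKM-ESCs lie above all 2iL-ESCs for Itga3, Itga9, Itgb5 and Lamb1 and below all of them for Itga5, Lama3 and Itgal, and the 2 OSKM-iPSC clones differ widely in Itga3 (71.4 and 25.97) and Itga9 (5.78 and 1.53).

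Among the laminin alpha chains, Lama5, the widely expressed chain of basement membranes, was the most abundant in every pluripotent library. It had 18.5 and 24.3 FPKM in OSKM-ESCs at day 18, 54.2 and 45.4 at day 25, and 45.1 and 45.3 at day 38. In 2iL-ESCs it had 15.7 and 15.4, then 36.7 and 37.7, then 33.3 and 33.5. Lama5 differed more between days than between media, yet at each day OSKM was above 2iL, with a log2 change of 0.42 ± 0.07 (SE, limma, adjusted p = 0.000338). The day-wise changes of 0.43, 0.41 and 0.43 were nearly equal, and Lama5 was among the members whose change did not differ between days (adjusted p = 0.993).

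Lama3, the chain of epithelial anchoring laminins, had 7.86 and 8.45 FPKM in 2iL-ESCs at day 18, 5.90 and 6.06 at day 25, and 5.74 and 5.20 at day 38. In OSKM-ESCs it had 2.91 and 2.85, then 1.96 and 2.13, then 0.81 and 1.002. There was no overlap, and the log2 change was -1.40 ± 0.11 (SE, limma, adjusted p = 5.6e-07). Lama1, a chain of early embryonic laminins, had 0.45 to 2.21 FPKM in OSKM-ESCs and 0.41 to 2.88 in 2iL-ESCs and did not pass (limma, adjusted p = 0.247). Lama4, a chain of mesenchymal and vessel laminins, had 0.83 to 1.84 FPKM in OSKM-ESCs and 0.08 to 0.16 in 2iL-ESCs (log2 change 0.94 ± 0.11, limma, adjusted p = 1.93e-05). Lama4 was tested only through OSKM-ESCs of day 38, so a higher value with OSKM was built in and its call has no weight as support. Lama2, the muscle chain, had at most 0.0591 FPKM in pluripotent libraries.

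The beta chains exchanged rank. Lamb1, the beta chain of most embryonic laminins, had 22.0 and 24.9 FPKM in OSKM-ESCs at day 18, 33.7 and 31.8 at day 25, and 33.0 and 33.5 at day 38. In 2iL-ESCs it had 2.92 and 3.03, then 7.90 and 6.74, then 6.34 and 5.87. The groups were far apart, with a log2 change of 2.30 ± 0.10 (SE, limma, adjusted p = 4.95e-09) and means that differed 5.45-fold. Lamb2, the beta chain of synaptic and kidney laminins, had 4.41 and 6.20, 6.75 and 5.67, and 7.85 and 9.22 FPKM in OSKM-ESCs at the 3 days, and 7.90 and 7.34, 14.8 and 16.2, and 14.7 and 14.6 in 2iL-ESCs. Lamb2 was lower with OSKM at each day, and the groups overlapped only across days (log2 change -0.79 ± 0.12, limma, adjusted p = 0.000183). Lamb1 was 3.63 to 5.60 times the level of Lamb2 in OSKM-ESCs and 0.370 to 0.533 times in 2iL-ESCs. As a share of the summed beta chain FPKM, Lamb1 made up 80.3% ± 3.07 (SD, n = 6) in OSKM-ESCs and 29.5% ± 2.55 in 2iL-ESCs.

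Lamc1, the gamma chain of nearly all laminins, moved the other way from Lamb1. It had 32.6 and 40.6 FPKM in OSKM-ESCs at day 18, 50.1 and 51.0 at day 25, and 48.0 and 49.1 at day 38. In 2iL-ESCs it had 45.0 and 50.2, then 91.8 and 95.6, then 83.0 and 80.0. At each day 2iL-ESCs were higher, with a log2 change of -0.66 ± 0.09 (SE, limma, adjusted p = 4.6e-05). Lamc3 had at most 0.0521 FPKM in pluripotent libraries.

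Read as trimers, the Lama5-Lamb1-Lamc1 laminin had its 3 chains at similar levels in OSKM-ESCs and at unequal levels in 2iL-ESCs. Mean FPKM in OSKM-ESCs was 38.8 ± 14.0 for Lama5, 29.8 ± 5.04 for Lamb1 and 45.2 ± 7.22 for Lamc1 (SD, n = 6). In 2iL-ESCs the means were 28.7 ± 10.3, 5.47 ± 2.05 and 74.3 ± 21.5. Lamb1 was the least abundant chain in 2iL-ESCs at every day, at 0.0603 to 0.0861 times the level of Lamc1, against 0.614 to 0.687 times in OSKM-ESCs. Lamb3, a beta chain of epithelial laminins, had a mean of 0.26 FPKM in 2iL-ESCs and 0.61 in OSKM-ESCs. RNA levels do not show which trimers were made.

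**Figure D3:**
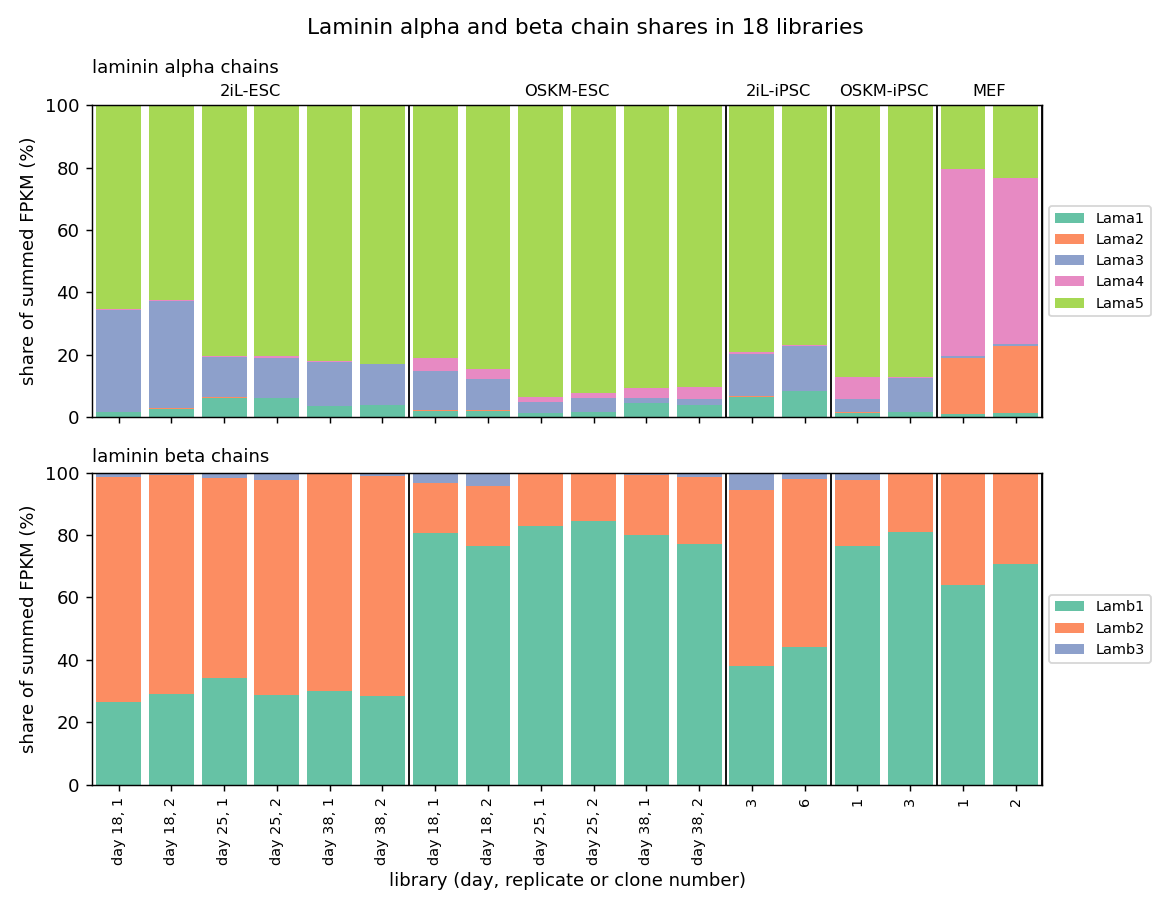
Share of each chain in the summed FPKM of the laminin alpha and beta chains (vertical axes, in %) in each library (horizontal axis, by group). Lamb1 takes 76.6% to 84.5% of the beta chains in OSKM-ESCs and 26.6% to 34.2% in 2iL-ESCs, and Lama5 leads the alpha chains in all libraries but MEF, where Lama4 leads.

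Markers of other cells moved with medium in ESCs. Summed fibroblast markers in OSKM-ESCs were 1.47% to 2.65% of the MEF mean, with 7 of 9 markers over an FPKM of 1 in at least 1 library and none at 0 in all of them. In 2iL-ESCs they were 0.309% to 0.521%, with 2 of 9 over 1 and again none at 0 throughout. Lamb1 stood at 22.8% to 34.9% of the MEF mean in OSKM-ESCs and at 3.02% to 8.17% in 2iL-ESCs, and Itga3 at 90.2% to 263% and 20.0% to 45.6%. Lama4 stood at 3.52% to 7.82% of the MEF mean in OSKM-ESCs and at 0.348% to 0.660% in 2iL-ESCs. In OSKM-ESCs Lama4 was at 3.88% and 4.21% at day 18 and at 6.69% and 7.82% at day 38. The fibroblast sum was at 2.40% and 2.65% at day 18 and at 1.57% and 1.47% at day 38. The part of the fibroblast markers in these levels was not tested. Summed endoderm markers (7 genes) were 2.95 to 8.51 FPKM in OSKM-ESCs, with 3 over 1, and 0.54 to 2.11 in 2iL-ESCs, with none over 1. In MEF the same list summed to 120.9 and 131.1 FPKM, most of it Dab2 and Thbd. Summed trophoblast markers (5 genes, 3 of them over 1 in OSKM-ESCs, 2 in 2iL-ESCs and 1 at 0 in each) were 3.31 to 6.44 FPKM in OSKM-ESCs of days 18 and 25, 27.1 and 25.4 at day 38, and 0.26 to 1.98 in 2iL-ESCs. The day 38 sum was almost all Cdx2 (26.3 and 24.5 FPKM), while Krt7, Gcm1 and Elf5 were lower at day 38 than at day 18 in OSKM-ESCs. Summed neural markers (5 genes, 3 over 1 in OSKM-ESCs, 1 in 2iL-ESCs and 1 at 0 in each) were 28.1 to 36.2 FPKM in OSKM-ESCs and 42.5 to 63.3 in 2iL-ESCs. That sum was carried by Tubb3, whereas Pax6 was higher with OSKM (0.61 to 1.53 FPKM against 0 to 0.55). The part of these cells in the members' levels was not tested.

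The change with medium also differed between the libraries of the 3 days. With 2 libraries of 1 line per medium and day, day cannot be told apart from differences between cultures or harvests. Of 18 members tested, 12 had a change that differed between days 18, 25 and 38 (limma, medium by day interaction), where 37.9% of all genes did. The count was 4 in a fit of all 9 groups together, and it was lower with some single libraries left out. No share of all genes is set beside these other counts, so they show only how the calls moved. Lamb3 entered this test only through OSKM-ESC day 18 replicate 2, at 1.40 FPKM. Lama4 entered only through the OSKM-ESC libraries of day 38, at 1.58 and 1.84 FPKM. The calls for these genes therefore have no weight as support. Day 25 gave the most negative change for the RGD receptor subunits Itga5, with log2 changes of -0.43, -1.54 and -0.78 at the 3 days, and Itgav, with 0.46, -0.61 and -0.32. In both genes the 2iL-ESC level was lowest at day 18 and highest at day 25. Itgb4 went from 0.54 at day 18 to -0.70 and -0.82, a change of sign that was the largest range among the integrins. Itga9, Itgal, Itgb1, Itgb5, Itgb7 and Lama5 did not pass this test and kept 1 sign at every day. Of these, Itgb1 was nearest to the threshold (limma, adjusted p = 0.0534).

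**Figure D4:**
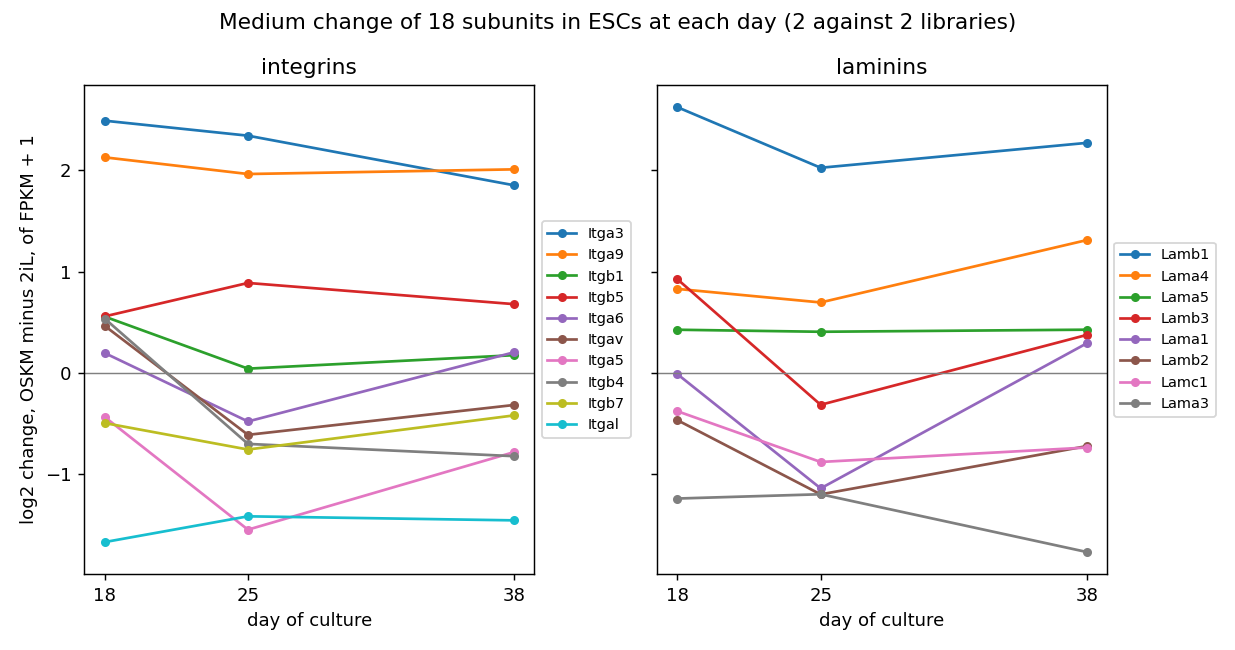
Difference in log2(FPKM + 1) between OSKM-ESCs and 2iL-ESCs (vertical axis) at days 18, 25 and 38 (horizontal axis) for the 10 integrin and 8 laminin subunits tested, each point from 2 against 2 libraries. Itga3, Itga9 and Lamb1 lie between 1.85 and 2.62 at all days, and Itgb4 crosses from above 0 to below 0 after day 18.

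In iPSCs the same question was asked with 2 clones against 2. Itga3, Itga6 and Lamb1 were higher in OSKM-iPSCs and no member was lower by the test. That was 3 of 19 members, where 5% of all 13653 genes rose, and 0 of 19, where 2.96% fell. At an unadjusted limma p under 0.05, 2 members were lower, Itgal and Lama1. Both passed the filter on low values only through 2iL-iPSCs, so a lower value with OSKM was built into their being tested. The median log2 change was 0.55 over the 19 members and 0.09 over all genes. With 2 clones a side the test rested heavily on single clones. With 1 clone left out the log2 change was 1.937 to 3.361 for Itga3, 0.881 to 1.063 for Itga6 and 1.755 to 2.528 for Lamb1. The calls for these 3 genes were lost without the filter on low values.

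Itga3 had 71.4 and 25.97 FPKM in OSKM-iPSC clones 1 and 3 and 6.61 and 5.52 in 2iL-iPSC clones 3 and 6. Both OSKM-iPSC clones were above both 2iL-iPSC clones and above MEF, and clone 1 was far above clone 3. The log2 change was 2.65 ± 0.46 (SE, limma, adjusted p = 0.0334), and without clone 1 it was 1.94 (adjusted p = 0.0301). Lamb1 had 40.4 and 23.3 FPKM against 5.59 and 6.83, again without overlap. Its log2 change was 2.14 ± 0.29 (SE, limma, adjusted p = 0.0208), and without clone 1 it was 1.75 (adjusted p = 0.0339). Thus Itga3 and Lamb1 rose in ESCs and in iPSCs, and the difference between the 2 changes did not pass the test for Itga3 (0.42 ± 0.37, adjusted p = 0.484) or Lamb1 (-0.16 ± 0.23, adjusted p = 0.676, both limma). Without clone 1 the differences were -0.29 for Itga3 (adjusted p = 0.215) and -0.55 for Lamb1, which then passed (adjusted p = 0.022), and without clone 3 the difference of 1.14 for Itga3 passed (adjusted p = 0.000693).

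Itga6 had 54.1 and 47.6 FPKM in OSKM-iPSC clones 1 and 3 against 27.03 and 23.9 in the 2iL-iPSC clones. The 2 clones of each medium lay close together, and the log2 change was 0.97 ± 0.16 (SE, limma, adjusted p = 0.0302). Without clone 1 it was 0.88 and missed the threshold (adjusted p = 0.0644). Itgb1 had 126 and 56.0 FPKM against 30.2 and 26.8, without overlap, but its log2 change of 1.53 ± 0.38 did not pass (SE, limma, adjusted p = 0.0654). Without clone 1 that change was 0.95 (adjusted p = 0.0556).

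Itga9 showed how much 1 clone could carry. It had 5.78 FPKM in OSKM-iPSC clone 1, 1.53 in clone 3, and 1.42 and 1.45 in the 2iL-iPSC clones. Clone 1 was at the OSKM-ESC level and clone 3 at the 2iL-iPSC level, and the log2 change of 0.77 ± 0.49 (SE, limma, adjusted p = 0.341) became 0.06 without clone 1. Lama4 had 3.41 in clone 1, 0.15 in clone 3, and 0.14 and 0.09 in the 2iL-iPSC clones. Clone 1 also had the higher fibroblast marker sum, at 6.97% of the MEF mean against 0.457% in clone 3, and Lama4 in clone 1 was at 14.5% of the MEF mean. The part of the fibroblast markers in these values was not tested. Summed trophoblast markers were 12.7 and 13.4 FPKM in OSKM-iPSC clones 1 and 3, with Krt7 at 9.40 and 10.7, against 2.04 and 0.91 in 2iL-iPSC clones 3 and 6. Summed endoderm markers were 9.77 and 1.32 against 1.73 and 1.29. In clone 1 that sum was mostly Dab2 (7.08 FPKM) and Thbd (1.45). Both genes were higher in MEF, at 34.9 and 37.8 FPKM for Dab2 and 78.8 and 86.6 for Thbd. Gata4, Gata6, Sox17, Sox7 and Foxa2 had at most 0.40 FPKM in clone 1. Summed neural markers, mostly Tubb3, were 27.9 and 22.1 against 47.0 and 65.8. The part of these in the members' levels was not tested either.

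The exchange of beta chains was seen in iPSCs too, through Lamb1 alone. Lamb1 was 3.60 and 4.30 times the level of Lamb2 in the 2 OSKM-iPSC clones and 0.675 and 0.814 times in the 2iL-iPSC clones. Lamb2 itself had 11.2 and 5.41 FPKM in OSKM-iPSC clones 1 and 3 against 8.29 and 8.39, and did not pass (log2 change -0.08 ± 0.33, limma, adjusted p = 0.895, and -0.54 with adjusted p = 0.178 without clone 1). Lama5 had 42.6 and 36.9 FPKM against 29.1 and 21.7 (log2 change 0.64 ± 0.20, limma, adjusted p = 0.106, and 0.54 without clone 1). Lamc1 had 67.1 and 35.6 against 72.1 and 58.4, overlapping (log2 change -0.40, limma, adjusted p = 0.427, and -0.85 with adjusted p = 0.0814 without clone 1). Itgal had 0.22 and 0.74 FPKM in OSKM-iPSCs against 2.02 and 2.26, and Lama1 had 0.67 and 0.64 against 2.42 and 2.32. Each was tested only through the 2iL-iPSC clones, so a lower value with OSKM was built in. For both genes the clones of the 2 media did not overlap, and neither passed the adjusted test (limma, adjusted p = 0.0856 for Itgal and 0.0699 for Lama1, and 0.112 and 0.077 without clone 1).

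**Figure D5:**
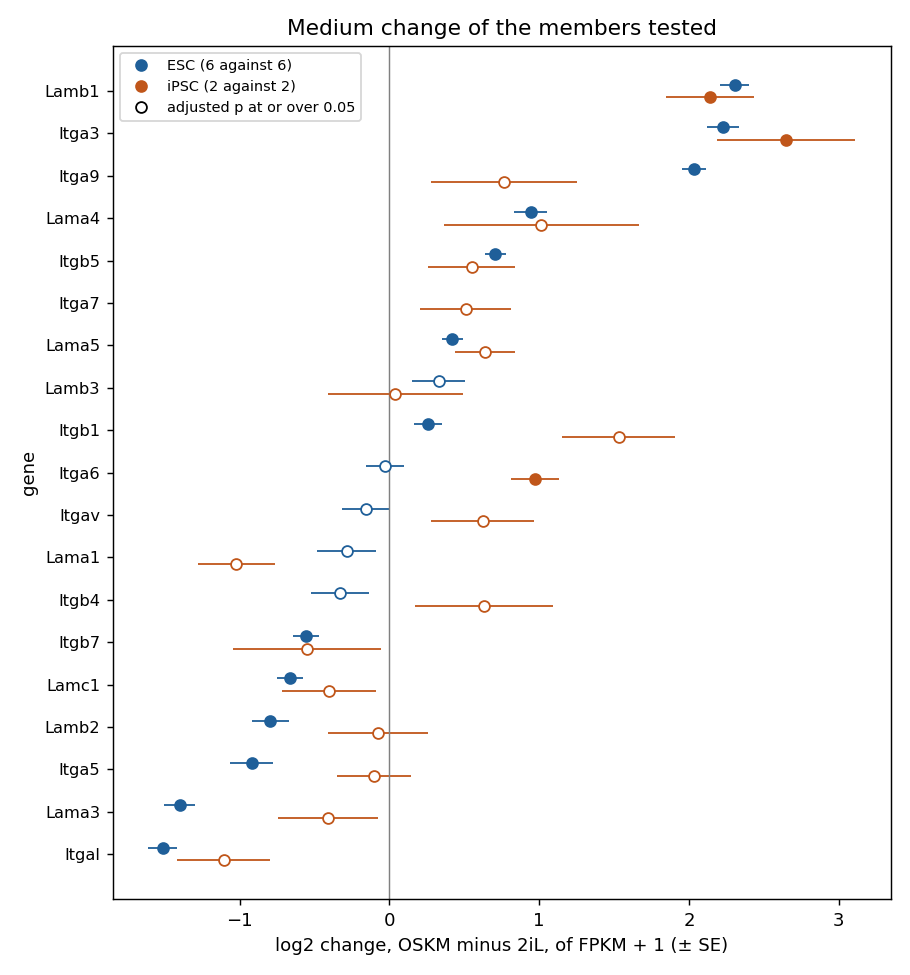
Log2 change of FPKM + 1 with medium, OSKM minus 2iL (horizontal axis, with SE), for each member tested (vertical axis) in ESCs and in iPSCs, with filled points for an adjusted p under 0.05. Itga3 and Lamb1 are filled and near 2 or above in both kinds of cell, and Itga6 is near 0 in ESCs (-0.03) and at 0.97 in iPSCs.

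The difference between the change in iPSCs and that in ESCs was tested directly, in 16 libraries. The change was more positive in iPSCs for 5 of 19 members (Itga5, Itga6, Itga7, Itgb1 and Lama3), where 8.67% of all genes were. It was more negative for 2 of 19 (Itga9 and Lama1), where 5.55% were. Itga7 entered this test only through OSKM-iPSC clone 3, at 1.02 FPKM, so its call has no weight as support. Itga6 differed by 0.998 ± 0.18 (SE, limma, adjusted p = 0.00474), with 0.97 in iPSCs and -0.03 in ESCs, and by 0.91 without clone 1. Itga5, which fell in ESCs, had 24.6 and 15.5 FPKM in OSKM-iPSCs against 22.2 and 20.1 in 2iL-iPSCs, and its change differed by 0.82 ± 0.18 (SE, limma, adjusted p = 0.0133), or by 0.50 (adjusted p = 0.00645) without clone 1. Lama3, which also fell in ESCs, had 2.14 and 4.58 against 5.03 and 4.13 in iPSCs. The counts moved up or down when a single clone was left out, so they rest on single clones. For Itga9 the difference of -1.27 ± 0.37 (SE, limma, adjusted p = 0.0418) was -1.98 without clone 1 and -0.56 without clone 3, and it lost its call without any 1 of the other 14 libraries (adjusted p of up to 0.111). For Lama3 the difference of 0.99 ± 0.24 (adjusted p = 0.0213) was 1.41 without clone 1. The call for Itga7 was lost in 8 of 15 fits that left out 1 library.

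Against the MEF from which they came, OSKM-iPSCs had 3 of 24 members higher (Itga6, Lama3 and Lama5), where 34.0% of all genes were, and 15 lower, where 26.4% were. 2iL-iPSCs had 5 of 25 higher (Itgal, Lama1, Lama3, Lama5 and Lamc1), where 40.6% of all genes were, and 17 lower, where 37.4% were. The median log2 change was -1.28 over the 24 members and 0.19 over all genes for OSKM-iPSCs, and -1.05 over 25 members and 0.09 over all genes for 2iL-iPSCs. Itga1, Itga2b, Itga8, Itga11, Itgb2, Itgb3 and Lama2 passed the filter only through MEF in both comparisons, and Itga7 and Lama4 did so against 2iL-iPSCs, so a difference in these was built in. Lama3 passed it only through the iPSCs in both comparisons, and Itgal and Lama1 only through 2iL-iPSCs. A higher level of these in iPSCs was built in too. Both comparisons share the MEF libraries. The calls for OSKM-iPSCs were lost without either MEF library, so they rest on both. The counts also moved when a single OSKM-iPSC clone was left out.

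The subunits that fell included the most abundant ones of fibroblasts. Itgb1 had 499 and 529 FPKM in MEF, against 126 and 56.0 in OSKM-iPSCs (log2 change -2.60 ± 0.41, limma, adjusted p = 0.00812, and -3.17 without clone 1) and 30.2 and 26.8 in 2iL-iPSCs (-4.13 ± 0.10, adjusted p = 1.45e-05). Itgav had 49.2 and 48.8 FPKM in MEF and 11.8, 6.39, 6.60 and 4.25 in the 4 iPSC clones. Itga11, a collagen receptor subunit of fibroblasts, had up to 9.60 FPKM in MEF and at most 0.14 in pluripotent libraries. Itga7 had 7.499 and 7.46 in MEF and 0.90, 1.02, 0.22 and 0.55 in the 4 clones.

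The leading laminin alpha chain was Lama4 in MEF and Lama5 in iPSCs. MEF had 26.6 and 20.5 FPKM of Lama4, 7.92 and 8.38 of Lama2, and 9.03 and 8.99 of Lama5. Lama4 made up 56.6% ± 4.80 (SD, n = 2) of the alpha chain FPKM in MEF and Lama5 21.8% ± 2.05, whereas Lama5 made up 87.2% ± 0.082 in OSKM-iPSCs and 78.1% ± 1.72 in 2iL-iPSCs. Lama5 was at 472.7% and 409.7% of the MEF mean in OSKM-iPSC clones 1 and 3, with a log2 change of 2.02 ± 0.12 (SE, limma, adjusted p = 0.00143) that was 1.92 without clone 1, and its log2 change in 2iL-iPSCs was 1.38 ± 0.16 (adjusted p = 0.000977). Lamb1 fell less from MEF in OSKM-iPSCs (log2 change -1.62 ± 0.29, and -2.01 without clone 1) than in 2iL-iPSCs (-3.76 ± 0.14), as the direct comparison of the media above gives. Itga3 went opposite ways from MEF in the 2 media. It was above MEF in both OSKM-iPSC clones (log2 change 1.55 ± 0.50, limma, adjusted p = 0.0555, and 0.84 without clone 1). In both 2iL-iPSC clones it was below MEF (log2 change -1.10 ± 0.13, limma, adjusted p = 0.00112). Itga6 was above MEF in both OSKM-iPSC clones too.

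Other genes of the pathway moved in both directions. Of 8 basement membrane partners tested in ESCs, 3 rose and 4 fell with OSKM, where 29.5% of all genes rose and 24.4% fell. Those beyond a log2 change of 1 were the collagen IV chains Col4a1 (1.56 ± 0.08) and Col4a2 (1.60 ± 0.14), which rose, and Nid1 (-1.40 ± 0.23), which links laminin to collagen IV and fell. Of 5 other integrin ligands tested, 2 rose and 2 fell, among them Tnc, tenascin C (1.21 ± 0.11), Mfge8 (-1.61 ± 0.22) and Spp1, osteopontin (-3.62 ± 0.15). Of 10 integrin activators and linkers tested, 3 rose and 3 fell, and 1, Parva, which ties integrins to actin, was beyond 1 (2.66 ± 0.16; all SE and limma). In iPSCs, where 5% of all genes rose and 2.96% fell, the counts were 1 higher and 0 lower of 8 partners (Hspg2, perlecan, 1.42 ± 0.26), 0 higher and 1 lower of 5 ligands (Spp1, -2.25 ± 0.13), and 2 higher and 0 lower of 10 activators and linkers (Parva, 2.81 ± 0.59). These 3 genes, and Ptk2, the focal adhesion kinase (0.39 in ESCs and 0.78 in iPSCs), were called in the same direction in ESCs. Without OSKM-iPSC clone 1, Parva (1.91, adjusted p = 0.0375) and Spp1 (-2.23, adjusted p = 0.0208) passed, Hspg2 (1.09, adjusted p = 0.0609) and Ptk2 (0.68, adjusted p = 0.0953) did not, and Nid1 (-2.08), Bcam (-1.10) and Agrn (-1.03) passed as lower (all limma).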

How the data were processed

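RNA-seq libraries were made by the study with a poly-A kit that does not mark strand, so reads of overlapping exons cannot be told apart on either strand. The members with the largest share of exon bases in another gene were Itgam (68.7%, Gm49368) and Itga10 (33.5%, Gm42957). The authors aligned reads to GRCm38 (mm10) with STAR 2.7.1a, kept uniquely mapped reads and wrote FPKM, TPM and coverage per gene with StringTie 2.0, and tested genes with Cuffdiff 2.2.1. The deposited FPKM were used as the measure. The deposited TPM were an alternative, recomputed from FPKM for 2 libraries in which a failed value spoils them. The deposited coverage served only as a view of depth. For 11 repeated gene identifiers FPKM were summed, and 2 genes with a failed value were left out. The files hold no counts, so no count model, interval or limit for a count of 0 was used.

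Tests used limma 3.58.1 (R 4.3.3, lmFit and eBayes with trend) on log2(FPKM + 1), on the libraries of the groups compared, leaving out genes that never passed an FPKM of 1 there, with Benjamini-Hochberg adjustment over all genes tested and a threshold of 0.05. ESC fits had day as a covariate. A log2 change on this scale understates the change of low genes. In OSKM-iPSCs against MEF the median of all genes was 0.187 in log2 and 0.037 after median-ratio scaling, and changes there are to be read against it. The members, the marker and pathway lists and the tests were chosen with earlier results of these data known. Named members were 14 receptors and chains chosen by role, and any member called with a log2 change over 1 in either direction between the media. Other members are named where a count is given or their values were singled out. Blood and endothelial marker lists summed to 4.44 to 12.6 and 14.3 to 30.5 FPKM in pluripotent libraries. Other settings tried were the pseudocount (0.1), the filter, median-ratio and quantile scaling, TPM, limma without trend, the study's cutoff (unadjusted p under 0.05 and 2-fold), 1 fit of all 9 groups, a replicate block and each library left out. Promoter sequences came from RefSeq (GRCm38.p6), where 23 members matched and 13 did not. A gene that the name rule also takes is not reported here and is left out of all counts of members.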

Additional observations from a re-analysis of the deposited data

Results flagged for a closer look

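In ESCs 12 members had a change with medium that differed between days 18, 25 and 38 in the test of medium by day. The range of the log2 change over the 3 days was 0.637 for Itga3, 1.111 for Itga5, 0.682 for Itga6, 1.075 for Itgav and 1.356 for Itgb4 among the integrins. Among the laminin alpha chains it was 1.430 for Lama1, 0.569 for Lama3 and 0.615 for Lama4. Among the beta and gamma chains it was 0.597 for Lamb1, 0.732 for Lamb2, 1.239 for Lamb3 and 0.500 for Lamc1. Of 22 other settings, the call was lost in 16 for Lamb2, 15 for Lamc1, 12 for Itga6, 5 for Lamb1, 4 for Itga3, 3 for Lama3 and 1 for Itgav, and in 0 for Itga5, Itgb4 and Lama1. Lamb3 and Lama4 were not followed over the settings. Lamb3 passed the filter only through OSKM-ESC day 18 replicate 2, and Lama4 only through the OSKM-ESC libraries of day 38, so their calls have no weight as support. Itgb4, Itgav, Lamb3 and Itga6 changed sign between days, from higher with OSKM at day 18 to lower at day 25, and Lama1 was lower with OSKM by 1.14 in log2 at day 25 and higher by 0.29 at day 38. Itga3, Lamb1 and Lama4 were higher with OSKM at each day, and Lama3, Lamb2, Lamc1 and Itga5 were lower at each day.

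In 7 members the change with medium differed between iPSCs and ESCs in the direct test. The log2 change in iPSCs minus that in ESCs was 0.816 for Itga5, 0.998 for Itga6, 0.573 for Itga7, 1.273 for Itgb1 and 0.989 for Lama3, and it was -1.266 for Itga9 and -0.736 for Lama1. OSKM-iPSC clone 1 had 5.78 FPKM of Itga9 and clone 3 had 1.53, and the value for Itga9 was -1.98 without clone 1 and -0.56 without clone 3. The call for Itga9 was lost without any 1 of the other 14 libraries, and those for Itga5, Itgb1 and Lama3 were lost without 2iL-iPSC clone 6. The call for Itga7, which was tested only through OSKM-iPSC clone 3, was lost in 10 of 23 other settings.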

How the results depend on the processing

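Read totals are not known, groups of iPSCs and MEF had 2 libraries each, and a fit that left a lone library in a group assumed that it varied like the others. Of 102 values of the counts of members called under other settings, 91 stayed within 1.5 times, and of 92 with 1 library left out 30 moved beyond that. Shares of all genes called under these settings are not set beside the counts. The counts therefore show how calls moved, not how members differ from all genes. In ESCs 7 higher and 6 lower became 4 and 3 by the study's cutoff. The 12 that differed between days became 4 in the fit of all 9 groups. In iPSCs 3 higher became 0 without the filter and 8 in the fit of all 9 groups. There 0 lower became 1 with an FPKM over 1 in 2 libraries, 1 without trend, 2 by the study's cutoff and 2 in the fit of all 9 groups. For iPSCs against ESCs, 5 more positive became 8 by the study's cutoff and 2 to 10 with a library left out, and 2 more negative became 1 without the filter and 1 to 6 with a library left out. For OSKM-iPSCs against MEF, 3 higher became 0 to 8 with a library left out, and 15 lower became 0 to 17. For 2iL-iPSCs against MEF, 5 higher became 3 to 5 with a library left out. The log2 change of Itga9 in OSKM-iPSCs against MEF was 0.27 and did not pass, and it passed as -0.444 without OSKM-iPSC clone 1 and as 0.976 without clone 3. In each case the cause was not tested. With the replicate block 6 members rose and 6 fell in ESCs and 11 differed between days, the deviations of same-numbered libraries correlating by 0.131, 0.087 and 0.01 over 15567 genes at the 3 days, so the numbers were taken as names only.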
